A study of Mus musculus with 16 samples.

Results

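Transcripts of 8 genes that mark activity in neurons were followed through the libraries: Arc, Npas4, Bdnf and Homer1, taken as activity genes restricted to neurons, and the Egr transcription factors Egr1, Egr2, Egr3 and Egr4. They were chosen by symbol, with no measured value in the rule, but with earlier results of these data known. They are 8 of the 17097 genes of the deposited tables, and each was measured in every library and passed the filter on low values in every comparison. Striatal RNA was taken from C57BL/6J males, 63 days old and with the genotype label wild-type, 2 h after they received either vehicle or 1 mg/kg of clozapine N-oxide (CNO, a ligand of designer receptors). Each mouse gave RNA of the cleared lysate (input) and RNA bound to ribosomes that carry a hemagglutinin tag in astrocytes and were captured by it (immunoprecipitate, IP). The IP and the input of CNO mice and of vehicle mice make 4 groups of 4 libraries, from mice numbered 2 to 5 within each injection. The titles carry 8 mouse codes although the series text counts 4 mice, and should some codes share an animal, the p-values reflect technical spread in part. By its title the series is about switching on Gi signalling in astrocytes. The labels name neither the receptor for CNO nor the promoter, strain or virus that put tag and receptor into the cells, and no mice given CNO without that receptor were analysed here.

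IP libraries held 52074653 to 61540813 reads assigned to genes and input libraries 32751710 to 40331510. Values are CPM (counts-per-million, the reads of a gene relative to the normalized size of its library), taken from the log2 CPM of the authors. Log2 fold changes, their standard errors (SE) and adjusted p-values are from limma over all genes tested, with 4 libraries per group. In vehicle mice 15 of 15 astrocyte markers were higher in IP than in input, with a median log2 ratio of 2.88. So were 8 of 10 striatal interneuron markers (median 1.96) and 7 of 10 oligodendrocyte markers (median 0.87), while 10 of 10 microglia markers were lower. Over all 15909 genes tested in this comparison 37.6% were higher and 37.2% lower. Transcripts of 14 medium spiny neuron markers were also present in the IP, with no marker at 0 reads. Together they stood at 3384 to 3899 CPM in vehicle IP and 3012 to 4516 CPM in CNO IP. This was against 8820 to 11547 CPM in vehicle input and 8511 to 12299 CPM in CNO input. The cells that these reads came from were not tested. Between CNO and vehicle, 0 of these 14 were called in IP and 0 in input by limma, with 0 at an unadjusted p under 0.05 in either, and 0 by limma-voom. Interneuron (10 genes), pan-neuronal (12), microglia (10) and oligodendrocyte (10) markers likewise had 0 calls between CNO and vehicle in IP or input by limma or limma-voom, with at most 3 at an unadjusted p under 0.05. Of 15 astrocyte markers 3 were lower after CNO in IP. Endothelial markers summed to 244 to 267 CPM in CNO IP and 122 to 136 CPM in vehicle IP, where 1 of 10, the glucose transporter gene Slc2a1, was higher (1.27) and 1 lower. After CNO in input 1 was higher, again Slc2a1 (0.54), and 2 were lower, Cldn5 (-0.63) and Slco1a4 (-0.53). Slc2a1 was also the 1 endothelial marker above its input level in vehicle mice, with the other 9 lower.

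All 8 genes belong to the fast response of neurons to synaptic input, in which calcium and cAMP signals act on the transcription factors CREB and SRF that wait at their promoters. Arc and the short form of Homer1 act at the synapse, where Arc drives the removal of AMPA receptors and short Homer1 loosens the scaffold of metabotropic glutamate receptors. Npas4 is a transcription factor that calcium entry induces in neurons, Bdnf encodes a secreted neurotrophin, and the Egr factors are zinc-finger proteins that carry the signal on to later genes. In the striatum these genes, Bdnf apart, are best known from medium spiny neurons. Egr1 and other immediate early genes can also be induced in astrocytes, and the contrast between the 4 neuron-restricted genes and the 4 Egr factors asks whether both classes behaved alike in the astrocyte IP.

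The bases before the start sites of 4 of the genes are shown because CREB motifs lie in them. CREB motifs lie both in genes that rose in the IP (Egr2 and Homer1) and in genes that did not pass the test (Egr4 and Npas4). Among the bases shown, an SRF motif lies in those of Egr2 alone. RefSeq promoter entries for the build GRCm38.p6 matched 5 of the 8 genes (Npas4, Bdnf, Homer1, Egr2 and Egr4). Capitals mark TGACG, the core of the CREB site, or its complement CGTCA on the other strand, and in Egr2 also the CArG box, the SRF site. Each line reads 5′ to 3′ on the strand of the gene.
Egr2, chr10:67537619-67537868, plus strand, before the start site at 67537869: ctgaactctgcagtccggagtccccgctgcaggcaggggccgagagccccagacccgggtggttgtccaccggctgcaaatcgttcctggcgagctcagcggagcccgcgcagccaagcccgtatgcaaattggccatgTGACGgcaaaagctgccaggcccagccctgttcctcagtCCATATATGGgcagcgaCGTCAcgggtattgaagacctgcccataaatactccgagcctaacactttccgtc
Homer1, chr13:93303507-93303756, plus strand, before the start site at 93303757: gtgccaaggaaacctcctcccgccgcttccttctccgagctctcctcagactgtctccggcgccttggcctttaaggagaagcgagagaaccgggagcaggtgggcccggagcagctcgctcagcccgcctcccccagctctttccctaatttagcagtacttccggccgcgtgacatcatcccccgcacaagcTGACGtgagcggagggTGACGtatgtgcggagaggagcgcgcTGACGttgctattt
Egr4, chr6:85513590-85513839, minus strand, before the start site at 85513589: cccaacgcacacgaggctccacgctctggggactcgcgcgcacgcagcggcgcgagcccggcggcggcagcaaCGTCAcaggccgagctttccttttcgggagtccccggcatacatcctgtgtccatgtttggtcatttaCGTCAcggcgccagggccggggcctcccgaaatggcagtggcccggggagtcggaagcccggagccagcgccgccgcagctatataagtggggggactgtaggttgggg
Npas4, chr19:4990131-4990155, minus strand, a stretch from 184 to 160 bases before the start site at 4989971: ttcgaCGTCAcgggaTGACGtcgga

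The Egr2 window shown, 1 of 5 listed for the gene, held 1 CArG box, 72 to 63 bases before the start. It also held 2 TGACG motifs, 1 on either side of that box. The Homer1 window shown, 1 of 2 listed, held 3 TGACG motifs within 56 bases of the start, all on the strand of the gene. The other Homer1 window (start site 93308034) and an Egr2 window (start site 67535499) held none of the motifs searched. The Egr2 window before 67537566 held another CArG box, which lies outside the window shown, but no TGACG. Egr4 and Npas4 held 2 each, and the stretch of Npas4 lies in an exon of a transcript that starts further upstream. TGACG, searched on both strands, stood in 17.8% of all 32851 windows of 250 bases in the RefSeq table. The CArG box stood in 1.47% of them. Of the 7 windows of Bdnf 1 held TGACG and 1 held TGANTCA, the AP-1 site, which 6.75% of all windows hold. The palindrome TGACGTCA, found in 1.55% of all windows, and GCGNGGGCG, the Egr site, found in 4.70%, were in none of the 16 windows of these genes. TGACG was thus present before genes that rose and before genes that did not pass. These are matches of letters, and no binding was measured.

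CNO raised 3 of the 8 transcripts in the astrocyte IP, Egr1, Egr2 and Homer1, by 1.47-fold to 2.37-fold, and 0 fell. In the input 0 of the 8 passed. Over all 15740 genes tested in IP 10.2% were called higher and 6.99% lower, and 12.7% had all 4 CNO libraries above all 4 vehicle libraries, and over the 15748 tested in input 0.819% were called higher and 0.184% lower. The rise did not divide the genes by class, since Homer1 of the neuron-restricted genes rose while Egr3 and Egr4 did not pass. Fos, the reference immediate early gene, rose 10.9-fold in the same IP libraries, and its input level also rose.

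**Figure D1:**
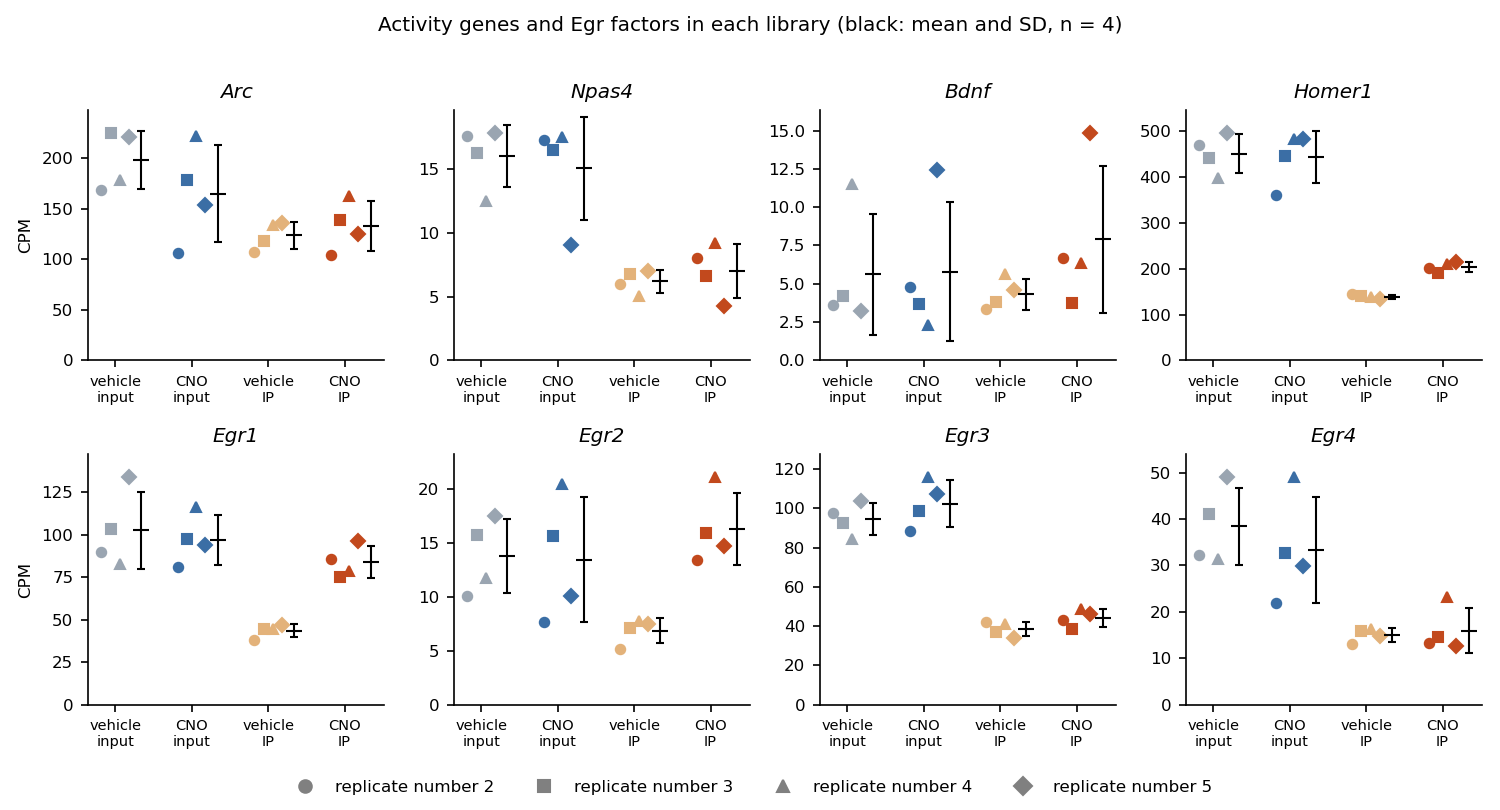
CPM of each gene in each library by group, from 0 on a linear axis, with the replicate number as symbol and the mean and SD of 4 libraries in black. Egr1, Egr2 and Homer1 in CNO IP lie above every vehicle IP library, and Bdnf is high in mice CNO 5 (diamond) and vehicle 4 (triangle).

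Egr1, the best studied member of the family and a common marker of active cells, lies on chromosome 18 at 34859823 to 34864984 (GRCm38, plus strand). It stood at 85.7, 75.4, 78.5 and 96.2 CPM in the CNO IP libraries of mice 2, 3, 4 and 5 and at 37.8, 44.6, 44.4 and 47.0 CPM in those of vehicle IP. The lowest CNO library was above the highest vehicle library. The log2 fold change was 0.95 (SE 0.09, adjusted p = 0.000112), a 1.93-fold rise. Input values were 80.9, 97.3, 116 and 93.8 CPM after CNO and 90.1, 103, 82.8 and 134 CPM after vehicle. These ranges overlapped, and the difference of -0.07 had a 95% interval of -0.43 to 0.30 (adjusted p = 0.949).

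Egr2, a factor first known from hindbrain patterning and myelination and also induced by activity (chromosome 10, 67535475 to 67542188), showed the largest fold of the 8 genes. CNO IP held 13.5, 15.9, 21.1 and 14.7 CPM and vehicle IP 5.17, 7.10, 7.73 and 7.46 CPM. Again all 4 CNO libraries were above all 4 vehicle libraries. The log2 fold change was 1.25 (SE 0.17, adjusted p = 0.00101), or 2.37-fold. In input the values were 7.67, 15.7, 20.5 and 10.1 CPM after CNO and 10.1, 15.8, 11.7 and 17.5 CPM after vehicle. The spread within each input group exceeded the difference of -0.10 between them (95% interval -0.86 to 0.66, adjusted p = 0.966).

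Egr3, which is needed for muscle spindles and is induced by neuronal activity (chromosome 14, 70077203 to 70082614), stood at 43.2, 38.4, 48.8 and 46.0 CPM in CNO IP and 42.1, 37.2, 41.0 and 34.1 CPM in vehicle IP. The groups overlapped and the log2 difference was 0.19 (95% interval -0.01 to 0.39, adjusted p = 0.194). CNO input held 88.2, 98.5, 116 and 107 CPM and vehicle input 97.8, 92.3, 84.4 and 104 CPM, a difference of 0.11 (adjusted p = 0.755). Of the 5 genes that missed the threshold in IP it had the narrowest interval.

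Egr4, the shortest transcript of the family (chromosome 6, 85511121 to 85513589, minus strand), had 13.4, 14.5, 23.1 and 12.6 CPM in CNO IP and 13.1, 15.9, 16.2 and 14.9 CPM in vehicle IP. A single library, CNO IP 4, was above the rest, and CNO IP 5 was the lowest of all 8. The log2 difference was 0.04 (95% interval -0.37 to 0.46, adjusted p = 0.924), and it was -0.01 with upper quartile scaling, 0.18 without mice CNO 5 and vehicle 4, and from -0.15 (without CNO IP 4) to 0.14 (without CNO IP 5) without one library. Input values were 21.8, 32.7, 49.0 and 29.8 CPM after CNO and 32.3, 41.1, 31.4 and 49.0 CPM after vehicle, which overlapped (-0.24, adjusted p = 0.841).

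Homer1, the scaffold protein gene (chromosome 13, 93299635 to 93405129), was the member of the neuron-restricted class that rose. CNO IP held 201, 191, 211 and 215 CPM and vehicle IP 144, 139.9, 137 and 133 CPM. The 2 groups were separate and each was tight, with SDs of 10.7 and 4.71 CPM. Its log2 fold change of 0.56 (SE 0.05, adjusted p = 6.65e-05) corresponds to 1.47-fold. In input, 361, 446, 484 and 482 CPM after CNO stood against 469.7, 442, 397 and 496 CPM after vehicle. Those overlapped, with a difference of -0.03 (95% interval -0.26 to 0.20, adjusted p = 0.967). Gene-level values do not separate the short, activity-induced form from the long scaffold forms, and the models Gm47075 and Gm47088 overlap the gene on the same strand, so some reads could be theirs.

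Arc (chromosome 15, 74669083 to 74672570, minus strand) did not pass in either kind of RNA. CNO IP held 104, 139, 163 and 125 CPM and vehicle IP 107, 118, 134 and 136 CPM. The lowest and the highest of these 8 values were both CNO libraries. The log2 difference was 0.09 (95% interval -0.22 to 0.39, adjusted p = 0.748), and without one library it ran from -0.02 (without CNO IP 4) to 0.20 (without CNO IP 2). Input values were 106, 178, 222 and 154 CPM after CNO and 169, 225, 178 and 222 CPM after vehicle. The lowest of them, CNO input 2, was also the input library with the smallest sum of medium spiny neuron markers (8511 CPM), and CNO input 4, with the highest Arc of its group, had the largest sum (12299 CPM). In vehicle input the 2 did not go together, since vehicle input 2, with the lowest Arc, had a sum of 11432 CPM and vehicle input 3, with the highest, 10617 CPM. The input difference of -0.30 (95% interval -0.81 to 0.21, adjusted p = 0.722) was within the spread, and the part of the neuron markers in it was not tested.

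Npas4 (chromosome 19, 4984355 to 4990316, minus strand) was among the lowest of the 8, with 214 to 446 reads per IP library. It stood at 8.03, 6.60, 9.18 and 4.23 CPM in CNO IP and 6.00, 6.79, 5.03 and 7.02 CPM in vehicle IP, so CNO held both ends of the range. The log2 difference was 0.13 (95% interval -0.39 to 0.65, adjusted p = 0.788), and without one library it ran from -0.02 (without CNO IP 4) to 0.35 (without CNO IP 5). CNO input held 17.2, 16.4, 17.5 and 9.04 CPM and vehicle input 17.5, 16.2, 12.5 and 17.8 CPM, a difference of -0.12 (adjusted p = 0.923). In each of the 4 groups 1 library was low, and it came from mouse CNO 5 or vehicle 4.

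Those same 2 mice, each within its own group, were the highest in Bdnf (chromosome 2, 109674700 to 109727007), the neurotrophin gene. CNO IP held 6.68, 3.77, 6.33 and 14.8 CPM and vehicle IP 3.33, 3.79, 5.63 and 4.57 CPM. The log2 difference of 0.72 was the third largest of the 8, but it had a 95% interval of -0.14 to 1.58 (adjusted p = 0.254). Without mice CNO 5 and vehicle 4 it was 0.49 (adjusted p = 0.304), and without one library it ran from 0.35 (without CNO IP 5) to 1.01 (without CNO IP 3). Input values were 4.79, 3.65, 2.30 and 12.5 CPM after CNO and 3.61, 4.20, 11.5 and 3.19 CPM after vehicle, and the difference of -0.04 had an interval of -1.44 to 1.37 (adjusted p = 0.992). The antisense gene Gm45346 overlaps Bdnf, and the counting is not stated to use strand.

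Genes of cortical excitatory neurons, cells that hold much Bdnf transcript in the forebrain, were high in the same 2 mice as Bdnf. A list of 8 such genes was drawn up after the values had been seen, and all 8 were highest in mouse CNO 5 among the CNO mice and in mouse vehicle 4 among the vehicle mice, in IP as well as input. Their summed level was 476 CPM in CNO input 5 and 396 CPM in vehicle input 4, against 53.9 to 205 CPM in the other 6 input libraries. In IP it was 424 CPM in CNO IP 5 and 217 CPM in vehicle IP 4, against 43.7 to 129 CPM. The level of Bdnf did not follow this sum throughout. CNO IP 4, with the lowest sum (43.7 CPM), held 6.33 CPM of Bdnf, and vehicle IP 4 held 5.63 CPM. Of this list 0 of 8 genes were called between CNO and vehicle by limma in IP or input, with 0 at an unadjusted p under 0.05 and 0 by limma-voom. Without these 2 mice 1 of the 8 was lower in IP. Their part in the Bdnf and Npas4 values was not tested.

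**Figure D2:**
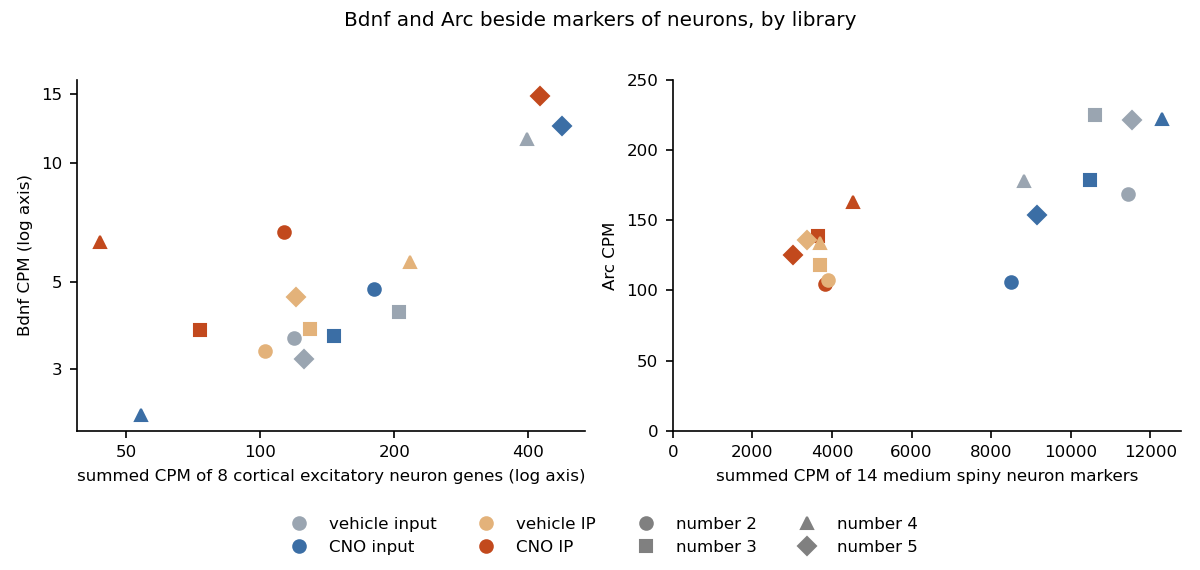
Left, Bdnf CPM against the summed CPM of 8 cortical excitatory neuron genes, both on log axes; right, Arc CPM against the summed CPM of 14 medium spiny neuron markers on linear axes. Each point is a library, with the group as colour and the replicate number as symbol. On the left CNO input 5, CNO IP 5 and vehicle input 4 lie farthest to the upper right, and on the right CNO input 2 is low in both Arc and neuron markers among input libraries.

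**Figure D3:**
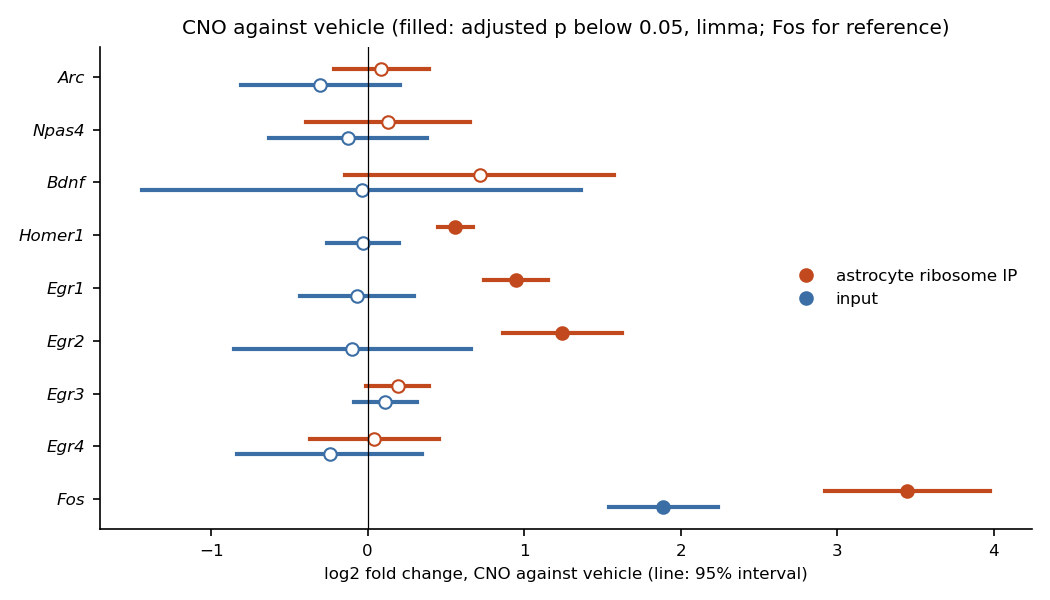
Log2 fold change of CNO against vehicle for each gene and Fos in IP and in input, with 95% intervals. Filled points passed an adjusted p of 0.05. Egr1, Egr2 and Homer1 are filled in IP, none of the 8 is filled in input, and Fos lies at 3.45 in IP and 1.89 in input.

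Fos, the partner of Jun in the AP-1 factor and the usual marker of recent activity, served as the reference. It stood at 340.4, 237, 265 and 359 CPM in CNO IP and 27.1, 18.8, 25.8 and 40.9 CPM in vehicle IP (log2 fold change 3.45, SE 0.23, adjusted p = 1.58e-05). In input it was 47.6, 49.9, 64.1 and 60.7 CPM after CNO and 11.2, 15.3, 15.5 and 18.4 CPM after vehicle (1.89, SE 0.15, adjusted p = 0.000371). In the same input libraries the upper ends of the 95% intervals of the 8 genes were 0.20 for Homer1, 0.21 for Arc, 0.30 for Egr1, 0.31 for Egr3, 0.35 for Egr4, 0.38 for Npas4, 0.66 for Egr2 and 1.37 for Bdnf.

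Per kilobase of exon, which allows genes to be compared, Arc was the most abundant of the 8 in every group, at 64.9 ± 9.47 CPM per kb (SD, n = 4) in vehicle input and 40.6 ± 4.45 in vehicle IP. In vehicle input Homer1 followed at 37.7 ± 3.52 CPM per kb, then Egr1 at 22.9 ± 5.05, Egr3 at 21.5 ± 1.86 and Egr4 at 17.9 ± 3.85, which did not differ beyond their spread. Egr2 at 4.06 ± 1.02 and Npas4 at 3.87 ± 0.59 were neighbours within their spread, and Bdnf was last at 0.91 ± 0.63. The order in vehicle IP was the same, with Homer1 at 11.6 ± 0.39 CPM per kb, Egr1 at 9.69 ± 0.88, Egr3 at 8.76 ± 0.83, Egr4 at 6.99 ± 0.66, Egr2 at 2.02 ± 0.34, Npas4 at 1.50 ± 0.22 and Bdnf at 0.70 ± 0.16. Egr1 and Egr3 were again within their spread. After CNO the IP order had Egr1 at 18.7 ± 2.06 CPM per kb beside Homer1 at 17.1 ± 0.89, which overlapped, and Egr2 at 4.80 ± 0.99. Below these stood Npas4 at 1.69 ± 0.52 and Bdnf at 1.27 ± 0.77, which overlapped, while Arc at 43.5 ± 8.04, Egr3 at 10.01 ± 1.01 and Egr4 at 7.40 ± 2.28 kept their places. CNO input had the order of vehicle input except that Egr3 at 23.2 ± 2.68 CPM per kb stood before Egr1 at 21.6 ± 3.26, within their spread. Lengths are those of all exons of a gene joined, so a gene with long alternative ends such as Homer1 is understated.

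A further question was how far these transcripts entered the astrocyte IP. In vehicle mice 7 of the 8 were lower in IP than in input, where 37.2% of all 15909 genes tested were lower and 37.6% higher. Homer1 fell furthest, by 1.70 on the log2 scale (SE 0.07, adjusted p = 3.03e-08). Npas4 followed with a log2 ratio of -1.37 (SE 0.14), Egr4 with -1.34 (SE 0.14), Egr3 with -1.29 (SE 0.08), Egr1 with -1.22 (SE 0.14), Egr2 with -0.99 (SE 0.20) and Arc with -0.67 (SE 0.11), with adjusted p from 5.49e-07 for Egr3 to 0.00136 for Egr2. All 4 IP libraries of each of these 7 genes lay below all 4 input libraries, as they did for 34.4% of all genes tested. Bdnf alone did not pass (-0.20, SE 0.39, adjusted p = 0.662). Neuron markers did not move as one. The 14 medium spiny neuron markers, all lower, had a median ratio of -1.58 and ran from -2.43 for Tac1 to -1.02 for Pde10a. Of 12 pan-neuronal markers 3 were higher and 4 lower, with a median of -0.01, of 10 interneuron markers 8 were higher and 0 lower, with a median of 1.96, and of the 8 genes of cortical excitatory neurons described above 1 was higher and 0 lower, with a median of -0.36. The ratios of Homer1, Npas4, Egr4, Egr3 and Egr1 fell inside the range of the medium spiny neuron markers and those of Egr2 and Arc above it. How much of each transcript in the IP came from neurons was not tested, and in bulk samples fewer cells of a type and less RNA per cell cannot be told apart.

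In CNO mice 4 of the 8 were lower in IP, Egr3 with -1.21 (SE 0.10, adjusted p = 1.12e-06), Npas4 with -1.11 (SE 0.28, adjusted p = 0.00568), Homer1 with -1.11 (SE 0.09, adjusted p = 1.50e-06) and Egr4 with -1.05 (SE 0.27, adjusted p = 0.00599), against 35.0% of all 15862 genes tested, with 39.9% higher. Medium spiny neuron markers again were lower in 14 of 14, at a median of -1.44, while pan-neuronal markers had 1 higher and 4 lower of 12 (median -0.11) and interneuron markers 8 higher and 1 lower of 10 (median 1.99). Without the library CNO input 2 the count of lower genes was 6. The other 4 did not pass without regard to the mouse. Compared within each mouse, which gave 42.2% of genes higher and 37.1% lower, Arc was lower (-0.28, adjusted p = 0.00274) and Egr2 (0.36, adjusted p = 0.0372) and Bdnf (0.56, adjusted p = 0.0426) were higher in IP than in input. The ratios of Bdnf in mice CNO 2 to CNO 5 were 0.48, 0.05, 1.46 and 0.25, with mouse CNO 4 far above the rest. Egr1 was at -0.20 (adjusted p = 0.122, and 0.124 within mice). With upper quartile scaling, which moved the median of all genes by -0.21 in this comparison, Egr1 was lower (-0.42, adjusted p = 0.00361).

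The 8 mice show this one by one. Egr2 was lower in IP than in input in 4 of 4 vehicle mice (-0.97, -1.15, -0.60 and -1.23 in mice 2 to 5) and slightly to clearly higher in 4 of 4 CNO mice (0.81, 0.02, 0.04 and 0.55). The values of 0.02 and 0.04, like the 0.05 of Bdnf in mouse CNO 3, are smaller in size than the shift of -0.21 from upper quartile scaling. Egr1 went from -1.25, -1.22, -0.90 and -1.51 in vehicle mice to 0.08, -0.37, -0.57 and 0.04 in CNO mice. Homer1 stayed below input throughout, at -1.70, -1.66, -1.53 and -1.90 after vehicle and -0.85, -1.22, -1.20 and -1.17 after CNO. In these 3 genes all CNO mice were above all vehicle mice, as in 10% of the 16284 genes tested (1629 genes). For Egr3 the mice overlapped over most of their range, with -1.60 to -1.04 after vehicle and -1.36 to -1.03 after CNO. Npas4 (-1.55 to -1.26 against -1.32 to -0.93), Egr4 (-1.72 to -0.96 against -1.25 to -0.71), Arc (-0.93 to -0.41 against -0.45 to -0.03) and Bdnf (-1.03 to 0.52 against 0.05 to 1.46) overlapped in part.

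**Figure D4:**
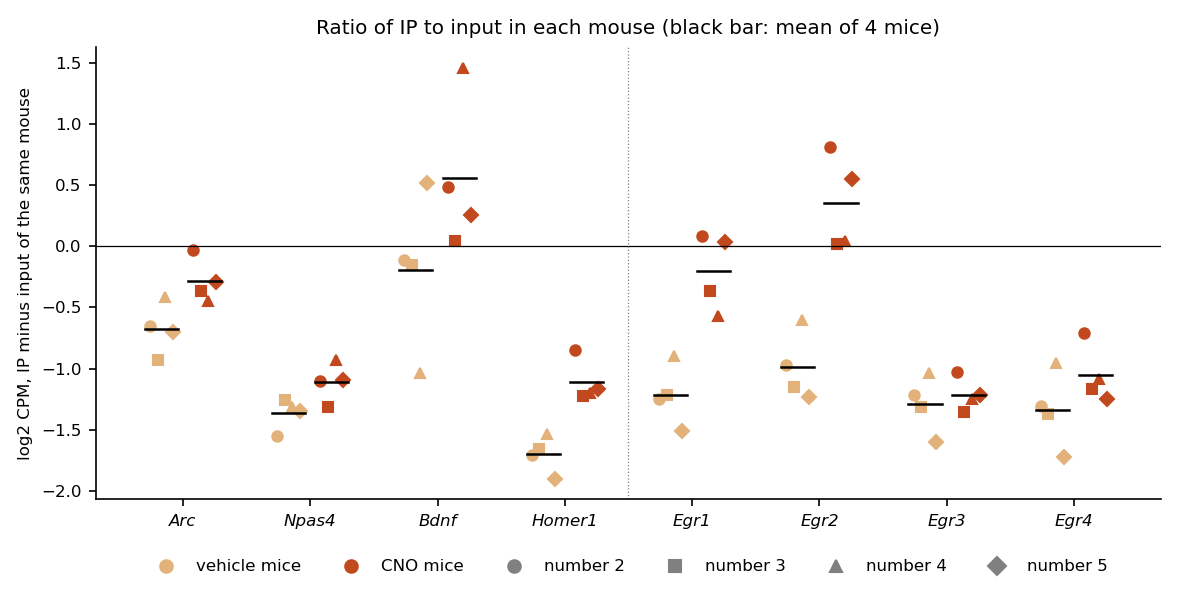
Log2 CPM in IP minus log2 CPM in input of the same mouse, for 4 vehicle and 4 CNO mice, with the mean as a black bar; neuron-restricted genes are left of the dotted line and Egr factors right. The CNO mice lie above all vehicle mice for Homer1, Egr1 and Egr2, while those of Egr3 and Npas4 overlap with them.

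Whether CNO acted differently on a transcript in IP and in input was tested as an interaction over the 16 libraries. The difference passed for Egr1 (1.02, SE 0.19, adjusted p = 0.00454) and Homer1 (0.59, SE 0.12, adjusted p = 0.00735), 2 of the 8, where 4.18% of all 16284 genes tested were called higher and 0.571% lower. Egr2 had the largest difference, 1.34 (SE 0.38), but its spread in input left it at an adjusted p of 0.0608. With the mouse as a replicate block, where 6.25% of genes were called higher and 1.36% lower, it passed (SE 0.19, adjusted p = 0.000963). The other 5 did not pass either way. Arc was at 0.39 (adjusted p = 0.612, and 0.0580 with the block), Bdnf at 0.76 (0.795 and 0.310), Egr4 at 0.28 (0.844 and 0.376), Npas4 at 0.25 (0.880 and 0.240) and Egr3 at 0.08 (0.919 and 0.776).

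Set side by side, the Egr factors had a median log2 fold change of 0.57 in IP, with 2 of 4 called higher, and the neuron-restricted genes 0.34, with 1 of 4 called higher. The median of all genes was -0.01, and 10.2% of all 15740 genes tested in IP were called higher. In input the medians were -0.08 for both classes, with 0 of 4 called in each by limma or limma-voom and 0 at an unadjusted p under 0.05. Over all 15748 genes tested in input 0.819% were called higher and 0.184% lower. The mean of the Egr class exceeded that of the other by 0.23 in IP, and lacking Egr2 alone this difference was 0.02. In vehicle mice the IP-to-input medians were -1.26 for the Egr factors and -1.02 for the neuron-restricted genes. No test was made between classes of 4 genes, and in IP the members of each class differed more from each other (0.04 to 1.25 and 0.09 to 0.72) than the class medians did.

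The wider activity programme was described with lists that had been drawn up with earlier results of these data known, so their direction is no independent evidence. Of 29 immediate early genes shared by many cell types, 26 were higher in IP and 1, Klf2, was lower, with a median log2 fold change of 2.49. Klf2, a Krüppel-like factor best known from endothelium, was at -0.69 (SE 0.19, adjusted p = 0.0354), a call lost without mice CNO 5 and vehicle 4. This median lies above every one of the 8 genes. Maff, a small Maf factor, rose most (6.01, SE 0.25, from a mean of 3.60 to 220.5 CPM), followed by Atf3, a stress-induced bZIP factor (5.34, SE 0.28), Fosl1, a Fos relative (4.91, SE 0.34), and the orphan nuclear receptor gene Nr4a3 (4.63, SE 0.12). In input 16 of the 29 were higher, led by Fosl1 (4.59, SE 0.48) and Maff (4.10, SE 0.19). The mean of Fosl1 in input was only 0.139 CPM after vehicle and 2.69 CPM after CNO, against 1.83 and 30.7 CPM for Maff. That input count was 8 without mice CNO 5 and vehicle 4, and 10 without CNO input 4, CNO input 5 or vehicle input 4 alone. Here 24 of 29 passed the test of the difference between IP and input, and 0 went the other way.

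Later genes of the neuronal activity programme formed a further list. In IP 12 of 20 rose and 0 fell, with a median of 0.94, and 9 of 20 passed the test of the difference between IP and input. They were led by Gpr3, a receptor that signals without ligand through Gs (2.80, SE 0.15), Arl4d, a small GTPase (2.10, SE 0.27), Tiparp, of the poly(ADP-ribose) polymerase family (1.94, SE 0.07), and Sertad1, a cell-cycle regulator (1.88, SE 0.11). Input had 2 of 20 higher, Rasd1, a Ras relative (1.27, SE 0.25, adjusted p = 0.0479), and Tiparp (0.72, SE 0.11, adjusted p = 0.0143), and 1 with upper quartile scaling or limma-voom. Both of those input calls were lost without mice CNO 5 and vehicle 4, and without CNO input 3, CNO input 4, CNO input 5 or vehicle input 4 alone.

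Among 14 corepressors of Egr factors and regulators upstream of them, 5 rose in IP and 1 fell. Crem, whose products include a CREB-family repressor, rose by far the most (2.30, SE 0.09, adjusted p = 3.06e-07) and was the only one higher in input (0.72, SE 0.10, adjusted p = 0.00729), a call lost without mice CNO 5 and vehicle 4. Nab2, a corepressor that binds Egr1 to Egr3 and is itself a target of Egr factors, rose from 26.9 to 42.0 CPM (0.64, SE 0.07, adjusted p = 0.000269). Srf, the factor of the CArG box, rose by 0.46 (SE 0.05, adjusted p = 0.000319), and Crtc3, a CREB coactivator, fell by 0.53 (SE 0.06, adjusted p = 0.000390). The other 2 that rose, named here after their values were seen, were Nab1 (0.34, SE 0.06, adjusted p = 0.00650) and the SRF coactivator Mkl1 (0.27, SE 0.07, adjusted p = 0.0245). With upper quartile scaling this list had 4 higher and 2 lower.

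Partners of the members at the synapse and in signalling moved little. Of 15 synaptic partners of Arc and Homer1, among them glutamate receptors, Shank scaffolds and the other Homer genes, 0 were called in IP and 0 in input by limma or limma-voom, with 0 and 1 at an unadjusted p under 0.05, and all IP differences lay between -0.04 and 0.14. Of 9 measured genes of BDNF processing, neurotrophins and their receptors, 1 rose in IP, Plat, the tissue plasminogen activator that helps to cleave the BDNF precursor (0.67, SE 0.11, adjusted p = 0.00285). Of 5 partners and relatives of Npas4, 1 rose in IP, Arnt, a bHLH-PAS dimer partner (0.35, SE 0.07, adjusted p = 0.0101), and this call was lost without mice CNO 5 and vehicle 4. Neither of the last 2 lists had a call in input by limma or limma-voom, with 1 and 0 genes at an unadjusted p under 0.05.

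**Figure D5:**
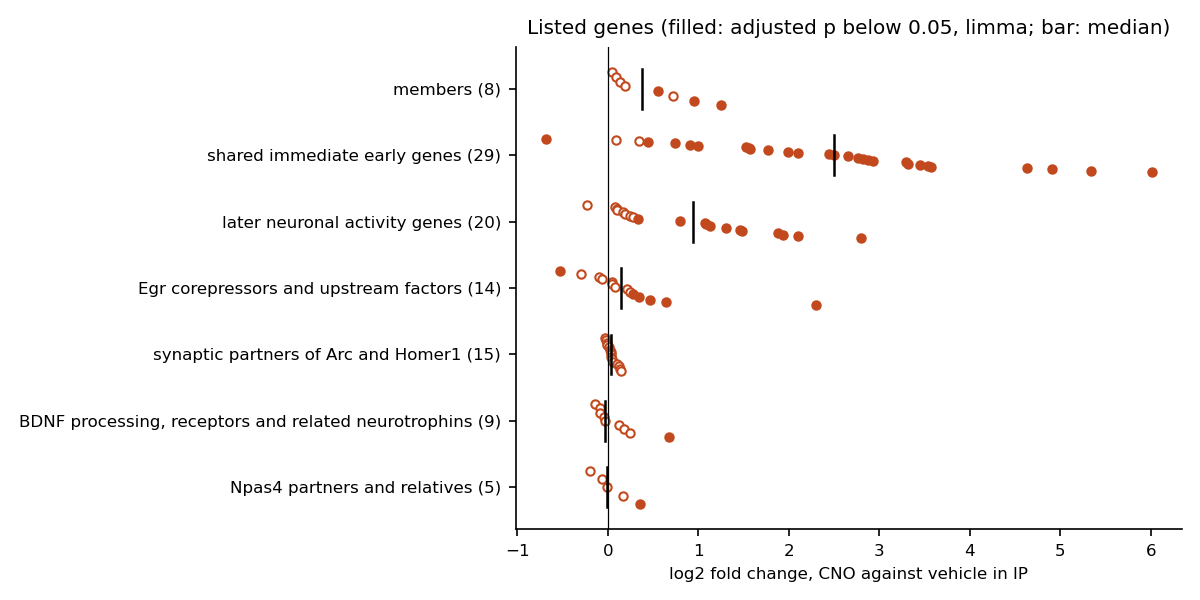
Log2 fold change of CNO against vehicle in IP for the 8 genes and 6 lists, each point a gene, filled where the adjusted p was under 0.05, with the list median as a bar and the number of genes tested in brackets. The shared immediate early genes reach 6.01 with a median of 2.49, the 8 genes reach 1.25, and the synaptic partners lie between -0.04 and 0.14.

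The genes most like each member over the 16 libraries were found by the mean absolute difference of log2 CPM after each gene was centred on its own mean, among 14153 genes with a mean of at least 1 CPM. For Homer1 they were Gcnt2 (0.09), Pdp1 (0.10) and Ankrd33b (0.12), and for Egr1 Ccnl1 (0.13), Actr3b (0.14) and Inhba (0.16). Egr2 was nearest to Avpi1 (0.25), Egr1 (0.26) and Gm11974 (0.27), while Egr2 was not among the 3 genes nearest to Egr1. Egr3 lay nearest to Cacnb4 (0.08), Lrrtm3 (0.08) and Rbfox1 (0.08), and Egr4 to Rem2 (0.15), Spata2l (0.15) and Rasgrp2 (0.15). Arc was closest to Lmo7 (0.15), Ifrd2 (0.15) and Ccdc85b (0.15), Npas4 to Pld5 (0.15), Myo3b (0.17) and Dach1 (0.17), and Bdnf to C1ql3 (0.29), Serpinb8 (0.30) and Nxph3 (0.30). Each of these neighbours was listed for 1 member only, so members shared none within a class or between the 2 classes. This does not set the classes apart. The 16 libraries share 8 mice and 2 kinds of RNA, so these values describe the libraries and carry no test.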

How the data were processed

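Ribosome-bound RNA of astrocytes (IP) and input RNA of 8 coded mice were sequenced in 16 libraries, with paired-end reads from Nugen Ovation RNA-Seq System V2 kits, per the labels' protocols. Reads were processed with bcl2fastq 2.17, STAR, HTSeq and limma on mm10, per the submitters' processing notes; annotation and strand setting were not given in the sources used here. The deposited values are log2 CPM per gene, in which the authors added a prior count of 0.25. The steps of these values gave whole reads for 100% of values within 0.01 read, which supplied the depths (52074653 to 61540813 reads in IP, 32751710 to 40331510 in input).

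Of 17098 lines 1 duplicate was dropped. Genes were tested with at least 15 reads in all and, in 4 or more libraries, the CPM of 10 reads in the median library. Since the unit is log2, limma 3.58.1 (R 4.3.3; moderated with trend and robust settings, Benjamini-Hochberg adjustment, threshold 0.05) was fitted to the deposited log2 values within the 2 groups compared, or all 4 for the interaction; the scripts were tested on simulated data. Called means an adjusted p under 0.05. CPM are 2 to the power of the deposited log2 values, prior included. Exon lengths and overlaps come from GENCODE M21 on GRCm38.

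Genes were named by rule: the 8 genes, Fos, up to 4 called genes per pathway list with the largest change in IP and up to 2 in input, and the 3 genes most like each of the 8. The members and lists were chosen with earlier results of these data known, and the list of cortical genes after seeing the values. Alternatives were limma-voom on the recovered reads, upper quartile and median-of-ratios scaling, a prior count of 2, no filter, all 16 libraries in one fit, a replicate block and leaving out each library. Leaving out mice CNO 5 and vehicle 4 was added after seeing the data. IP and input of the same mouse code deviated together from their group means (correlations 0.18 to 0.40 in CNO mice and 0.19 to 0.54 in vehicle mice, each of the 4 best with its own), so the code pairs IP with input.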

Additional observations from a re-analysis of the deposited data

Results flagged for a closer look

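Npas4 in CNO input 5 stood apart from the other libraries of its group. It lay at 9.04 CPM against 16.4 to 17.5 CPM, and on the log2 scale the gap to the next library was 0.91 of the group's range, which is above Dixon's 95% limit for 4 samples. Of 32 groups tested, 4 for each of the 8 genes, this was the 1 that passed, and chance gives about 1 in 20. The same library had the highest Slc17a7, a marker of cortical excitatory neurons (334 CPM), of all 16; whether the tissue taken bears on the value was not tested.

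The effect of CNO differed between IP and input, by the interaction test of limma, for 13 of the 24 named genes tested. Among the 8 genes these were Egr1 (1.02 higher on the log2 scale in IP) and Homer1 (0.59). Fos differed by 1.56. Among immediate early genes the difference was 3.26 for Nr4a3, 1.91 for Maff and 1.83 for Atf3. Crem differed by 1.58, Nab2 by 0.81 and Srf by 0.60. Of the later activity genes, Gpr3 differed by 2.51, Arl4d by 1.83, Sertad1 by 1.39 and Tiparp by 1.22. Over all genes tested 4.18% were called higher in this test. Most of the 24 genes were named for a large change in IP or input, which favours a difference between the 2, so the count of 13 is a description.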

How the results depend on the processing

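Of 680 values of the 8 genes under alternatives, pooled over all comparisons, 670 stayed on their side of the threshold, 10 newly passed, and no call was lost or changed sign. For IP against input in CNO mice each gene not called passed under some alternative. These were Arc, Egr2 and Bdnf with the mouse as a block, and Egr1 with upper quartile scaling. Egr2 also passed in the interaction with the block. The fold changes in IP without one library ran from 0.53 to 0.59 for Homer1, 0.88 to 1.00 for Egr1 and 1.11 to 1.33 for Egr2. Leaving out one library gave 3 to 3 of the 8 higher in IP, 0 to 0 in input, 7 to 7 lower in IP than input in vehicle mice, 4 to 6 in CNO mice and 2 to 3 in the interaction. With the mouse as replicate block, 2 genes (Egr2 and Bdnf) instead of 0 were higher in IP than in input in CNO mice. For CNO against vehicle the replicate number does not pair mice (correlations -0.17 to 0.18 in IP and -0.31 to 0.03 in input, 1 and 0 of 4 best with their own), and the replicate block changed no call of the 8 there. The class difference (Egr minus neuron-restricted) in vehicle mice was 0.037 lacking Bdnf, against -0.23, and in CNO mice 0.31 lacking Bdnf and -0.34 lacking Egr2, against -0.04.

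Counts over all genes moved more. In IP 1599 genes were higher (1001 without mice CNO 5 and vehicle 4) and 1100 lower (1944 with upper quartile scaling, 716 with the replicate block, 468 without both mice, 594 to 1203 without one library, lowest without vehicle IP 2). In input 129 were higher (55 without both mice, 85 to 155 without one library, lowest without CNO input 5) and 29 lower (7 with the block, 106 in one fit of all 16, 1 without both mice, 4 to 27 without one library, lowest without vehicle input 2). In the interaction 681 were higher (398 without both mice) and 93 lower (198 with upper quartile and 155 with median-of-ratios scaling, 222 with the block, 23 without both mice, 45 to 109 without one library, lowest without vehicle IP 2). Upper quartile scaling moved the share of calls that were higher from 59.2% to 39.3% in IP, from 50.3% to 40.8% and 53.3% to 40.2% for IP against input in vehicle and CNO mice, and from 88.0% to 73.3% in the interaction (78.3% with median-of-ratios scaling). It moved the median of all genes by -0.15 in vehicle and -0.21 in CNO mice for IP against input. The cause of these shifts was not tested. Depth limits Npas4 and Bdnf most, with as few as 81 reads of Bdnf in an input library.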

Other observations

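Relatives and partners of the 8 genes, chosen after their values were seen, went both ways between IP and input. Homer3 was higher in IP than in input in vehicle mice (log2 ratio 2.07, SE 0.15, adjusted p = 2.36e-06 by limma) and in CNO mice (2.28, SE 0.10), and Homer2 was higher in vehicle mice (0.73, SE 0.11, adjusted p = 0.000240) and at 0.55 in CNO mice (adjusted p = 0.0666), where Homer1 was lower in both. Ntrk2, which encodes the BDNF receptor TrkB, was higher in IP in both (1.98, SE 0.09, and 2.00, SE 0.06). Npas3, a bHLH-PAS gene like Npas4, was higher in IP (2.56, SE 0.09, and 2.36, SE 0.18), as was the dimer partner gene Arnt2 (1.33, SE 0.07, and 1.25, SE 0.10), while Npas2 was lower (-0.97, SE 0.10, and -1.09, SE 0.07). None of these 6 genes passed the test of CNO against vehicle in IP or input by limma. Of the 15 synaptic partners of Arc and Homer1, 8 were lower and 4 higher in IP in vehicle mice, and 8 lower and 2 higher in CNO mice. Grm5, the glutamate receptor mGluR5, was lower by a ratio of -0.99 (SE 0.10) in vehicle and -0.96 (SE 0.11) in CNO mice. Dlg4, the scaffold PSD-95, was lower by -1.34 (SE 0.06) and -1.21 (SE 0.07).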
